A study of Homo sapiens with 24 samples.

Results

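The aminoacyl-tRNA synthetases are the enzymes that attach each amino acid to its tRNA, and 35 of their genes were followed here among the 28907 gene symbols of a deposited RNA-seq table. The 35 were taken from a list of gene names, and the list and its subgroups were chosen with earlier results of these data known. Of the 35, 19 encode cytosolic enzymes and 16, whose names end in 2, encode mitochondrial enzymes. RNA was measured in A2780 and ES2, which are established human ovarian cancer cell lines. Each line was given as 4 groups of 3 libraries: luteolin, a plant flavonoid, with its vehicle DMSO, and siVRK1, an siRNA against the kinase VRK1, with a control siRNA, siCtrl. No other genotype, allele or agent is named for any group, and neither dose nor duration of luteolin is stated in the labels. Whether the libraries of 1 group are separate cultures is also not stated, and the p-values below therefore cover the spread from library to library, which may be technical.

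Each synthetase recognises 1 amino acid and its tRNAs, and human cells keep separate nuclear genes for most cytosolic and mitochondrial enzymes. KARS1 (lysine) and GARS1 (glycine) each make both forms from 1 gene, and EPRS1 joins the glutamate and proline enzymes in 1 chain. Many cytosolic synthetase genes are known targets of ATF4, a transcription factor whose translation increases when the kinases of the integrated stress response phosphorylate eIF2alpha. The mitochondrial genes are not generally counted among its targets. ATF4 binds with C/EBP partners to composite elements of the form TGATGNAA in target promoters, and WARS1 (tryptophan) is in addition induced by interferon gamma.

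Promoter sequence is shown for the cytosolic genes that hold this element close to a RefSeq start, because these genes are among those that moved together below. The letters TGATGNAA were searched on both strands in the RefSeq windows of build GRCh38.p14, which run from 250 bases before to 50 bases after an annotated RefSeq start. Of the 12 cytosolic genes counted as ATF4-linked (AARS1, CARS1, EPRS1, GARS1, IARS1, LARS1, MARS1, NARS1, SARS1, TARS1, WARS1 and YARS1), 10 had a window and 7 of these held a match. None of the 6 other cytosolic genes with a window held one, and 1 of 14 mitochondrial genes did (YARS2). Over all 27305 genes with a window, 1217 held a match, which is 4.46%. Of the 20 ATF4 pathway genes counted further below, 17 had a window. Only 4 of these 17 held a match (23.5%), ASNS among them, so most of these pathway genes lacked the letters. The stretches of 30 bases around the matches are given 5′ to 3′ on the strand of the gene, with the match in capitals, and with ASNS (asparagine synthetase, an ATF4 target) for comparison. A match in the form TTNCATCA lies on the opposite strand. Counted from the RefSeq start of the window, the first matched base lay at -33 in GARS1, -13 in IARS1, -2 in CARS1, -4 in MARS1 and -187 in AARS1, and after that start in TARS1 and NARS1. The gene spans given further below come from GENCODE release 29 and can start elsewhere. The stretches of GARS1, IARS1, CARS1, MARS1, TARS1 and NARS1 lie inside those spans, and the GENCODE span of MARS1 starts at 57475445.
GARS1, chr7:30594834-30594863, plus strand: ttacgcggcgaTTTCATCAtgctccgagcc
MARS1, chr12:57488053-57488082, plus strand: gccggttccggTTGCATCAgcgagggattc
CARS1, chr11:3057407-3057436, minus strand: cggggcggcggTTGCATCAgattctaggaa
AARS1, chr16:70289675-70289704, minus strand: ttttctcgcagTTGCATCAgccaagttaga
IARS1, chr9:92293692-92293721, minus strand: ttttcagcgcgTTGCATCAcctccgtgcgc
TARS1, chr5:33440956-33440985, plus strand: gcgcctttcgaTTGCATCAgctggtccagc
NARS1, chr18:57621804-57621833, minus strand: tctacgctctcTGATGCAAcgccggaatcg
ASNS, chr7:97872458-97872487, minus strand: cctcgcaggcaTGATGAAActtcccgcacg
Such a match is a description of letters and was not tested as a binding site. CARS1, MARS1, AARS1, IARS1 and TARS1 share the reversed letters TTGCATCA, and NARS1 holds the same letters on its own strand.

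Values are TPM (transcript abundances scaled so that each library sums to 1000000), added over the transcripts of a symbol, and sequencing depth is unknown. VRK1, the siRNA target, had 11.3, 9.41 and 7.98 TPM in A2780 siVRK1 libraries, against 54.4, 53.6 and 55.2 TPM in A2780 siCtrl libraries. In ES2 it had 4.08, 4.20 and 2.92 TPM in siVRK1 libraries a, b and 3, against 65.5, 66.2 and 62.2 TPM in siCtrl libraries. Markers of ovarian carcinoma were nearly absent in A2780, where PAX8, WT1, KRT7, MUC16 and CDH1 stayed under 1 TPM in every library and the 8 markers summed to 5.48 to 12.1 TPM. In ES2 they summed to 636 to 992 TPM, with EPCAM, MUC16 and CDH1 under 1 TPM. Leukocyte markers summed to at most 2.17 TPM in any library.

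All 35 synthetases passed the filter on low values in both lines. In DMSO libraries the cytosolic genes ranged in ES2 from 29.1 TPM for CARS1 (cysteine) to 152 TPM for TARS1 (threonine), and in A2780 from 18.0 TPM for FARSB to 308 TPM for WARS1. The mitochondrial genes were lower: PARS2 (proline) was lowest in every group and IARS2 (isoleucine) highest, at 4.16 and 87.8 TPM in ES2 DMSO and at 5.08 and 124 TPM in A2780 DMSO. The median synthetase of the cytosol had 100.7 TPM in ES2 DMSO and 153 TPM in A2780 DMSO, and the median mitochondrial synthetase had 17.5 and 24.4 TPM in the same groups.

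In ES2, luteolin was accompanied by higher transcript levels of the ATF4-linked cytosolic synthetases as a block. All 12 were higher than in DMSO with an adjusted p under 0.05, by 0.40 (EPRS1) to 1.33 (GARS1) on the log2(TPM + 1) scale, and their median was 1.0. Among all 12507 genes tested, 22.6% were higher and 25.8% lower, with a median log2 fold change of 0.00. Of all 35 synthetases 23 were called in either direction, against 48.4% of all genes. In all 12 the lowest luteolin library lay above the highest DMSO library, an arrangement found in 25.8% of all genes tested. The same 12 were also called higher in ES2 siCtrl than in ES2 DMSO libraries, with a median of 0.33, against 34.7% of all genes. EPRS1 had 113, 109 and 114 TPM with luteolin, below its ES2 siCtrl libraries at 121, 118 and 121 TPM. GARS1, at 304 to 319 TPM with luteolin, lay above its ES2 siCtrl libraries at 169 to 171 TPM. In bulk libraries, a change in the number of cells that express a gene and a change in RNA per cell cannot be told apart.

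GARS1, the glycine enzyme of both compartments (chr7:30594681-30634033, GRCh38, plus strand), had 311, 304 and 319 TPM in ES2 luteolin libraries and 122, 126 and 123 TPM in ES2 DMSO libraries. Its log2 fold change was 1.33 ± 0.03 (standard error, adjusted p 8.83e-11), the largest of the 35. SARS1, which charges serine tRNAs and the selenocysteine tRNA (chr1:109213918-109238169, plus strand), had 350.1, 334 and 372 TPM with luteolin and 144, 149 and 152 TPM with DMSO, a log2 fold change of 1.24 ± 0.04 (adjusted p 4.1e-10). The libraries of each group lay close together in both genes, and the groups were far apart.

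MARS1, the methionine enzyme of the cytosol (chr12:57475445-57517569, plus strand), had 180.0, 172 and 181 TPM in ES2 luteolin libraries and 78.8, 79.2 and 81.8 TPM in ES2 DMSO libraries (log2 fold change 1.14 ± 0.05, adjusted p 2.98e-09). WARS1 (chr14:100333788-100376805, minus strand) had 178, 166 and 183 TPM with luteolin, against 77.4, 90.0 and 83.9 TPM with DMSO (1.06 ± 0.07, adjusted p 1.77e-07). The groups did not overlap in either gene. CARS1, YARS1 (tyrosine) and AARS1 (alanine) had log2 fold changes of 1.12, 1.01 and 1.0. A second set of genes stood lower: IARS1 (isoleucine) at 0.63, TARS1 at 0.47, NARS1 (asparagine) at 0.44, LARS1 (leucine) at 0.43 and EPRS1 at 0.40. Of the 7 ATF4-linked genes with the promoter match, 4 lay at 1.0 or above and 3 below, so the match was found on both sides of this gap.

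**Figure D1:**
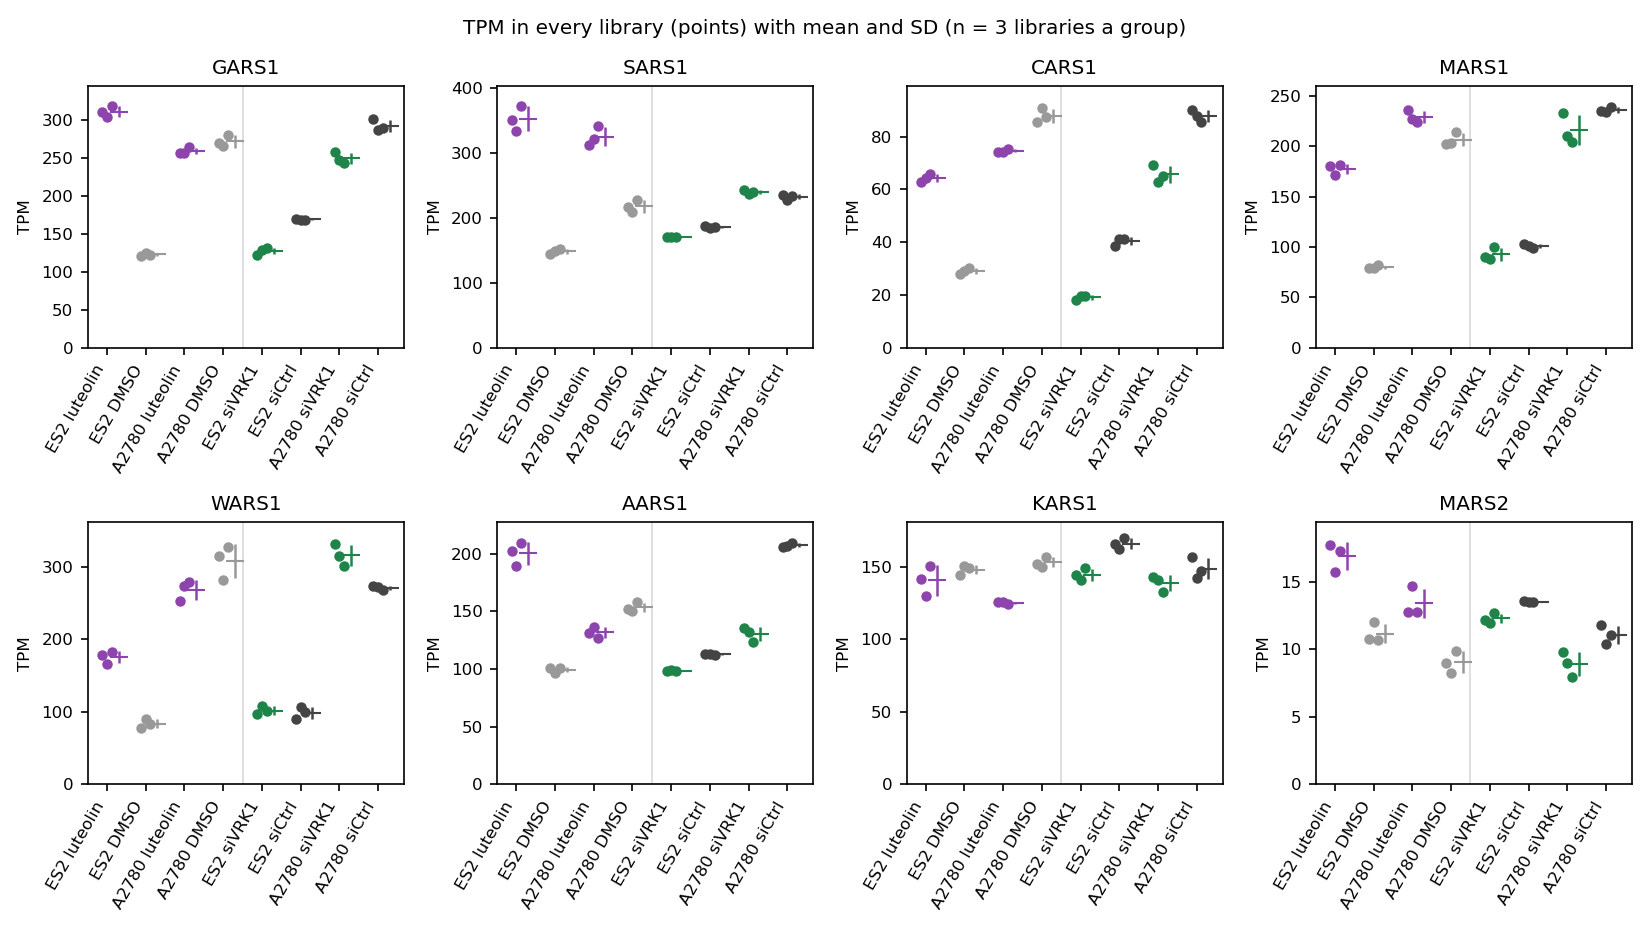
TPM (vertical axis, from 0) in every library (points) of the 8 groups for 8 synthetases, with the mean and SD of 3 libraries beside the points. In ES2 the luteolin points lie above the DMSO points for GARS1, SARS1, CARS1, MARS1, WARS1, AARS1 and MARS2, while for KARS1 they overlap.

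Of the 7 other cytosolic synthetases in ES2, QARS1 (glutamine) was higher with luteolin, RARS1 (arginine) was lower, and 5 did not pass the threshold. Their counts lay near or below the shares of 22.6% higher and 25.8% lower among all genes, and the fold change of QARS1 was within the range of the ATF4-linked genes. Their median log2 fold change was -0.08. QARS1 had 171, 140.4 and 158 TPM in luteolin libraries and 110.3, 119 and 116 TPM in DMSO libraries, and its log2 fold change was 0.44 ± 0.07 (adjusted p 0.000349). RARS1 had 92.8, 84.5 and 85.7 TPM with luteolin and 106, 106 and 114 TPM with DMSO, a log2 fold change of -0.30 ± 0.04 (adjusted p 0.000107). KARS1, the lysine enzyme of both compartments, had 142, 129.7 and 151 TPM with luteolin and 145, 151 and 149 TPM with DMSO (-0.08 ± 0.05, adjusted p 0.228). Its groups overlapped, while those of GARS1, the other gene that serves both compartments, did not. Without luteolin library 3, KARS1 passed as lower (-0.13, adjusted p 0.0408), and its sign turned with quantile normalization (0.01).

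The 7 enzymes that sit in the multisynthetase complex, a cytosolic assembly of synthetases and scaffold proteins, were split. EPRS1, IARS1, LARS1, MARS1 and QARS1 were higher in ES2 luteolin libraries, RARS1 was lower and KARS1 did not pass. Class I enzymes (9 genes) had 7 higher and 1 lower, and class II enzymes (9 genes) had 5 higher and 0 lower, beside 22.6% higher and 25.8% lower among all genes. EPRS1, which joins an enzyme of each class, was counted in neither. The classes are the 2 unrelated catalytic folds of the family, and members that did not pass occurred in both.

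Among the 16 mitochondrial synthetases in ES2, 3 were higher with luteolin and 6 lower, with a median log2 fold change of -0.03. Of 16 genes, the background shares of 22.6% and 25.8% are close to these counts. By library, 4 mitochondrial genes were higher and 7 lower without overlap, against 25.8% and 28.6% of all genes. MARS2, the mitochondrial methionine enzyme, had 17.7, 15.7 and 17.3 TPM with luteolin and 10.8, 11.999 and 10.7 TPM with DMSO, a log2 fold change of 0.56 ± 0.07 (adjusted p 2.7e-05). PARS2 had 5.83, 6.196 and 6.45 TPM with luteolin and 4.24, 4.52 and 3.72 TPM with DMSO (0.47 ± 0.09, adjusted p 0.00103). Both were low in level, and their groups did not overlap. CARS2 (cysteine) was the remaining higher gene, at 0.24.

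The lower mitochondrial genes in ES2 were YARS2, RARS2, HARS2 (histidine), VARS2 (valine), EARS2 (glutamate) and IARS2, by -0.34 to -0.14. RARS2 had 17.0, 16.5 and 15.3 TPM in luteolin libraries and 21.6, 19.4 and 19.8 TPM in DMSO libraries (-0.30 ± 0.07, adjusted p 0.00459). YARS2, the 1 mitochondrial gene with the promoter match, had 24.7, 17.9 and 21.2 TPM with luteolin and 25.2, 30.9 and 25.2 TPM with DMSO (-0.34 ± 0.10, adjusted p 0.0166). The calls of VARS2 and EARS2 were lost without at least 1 library of the line. With protein-coding transcripts alone neither passed, at 0.016 for VARS2 (adjusted p 0.962) and -0.03 for EARS2 (adjusted p 0.842). Such transcripts held 9.29% of VARS2 TPM and 10.9% of EARS2 TPM in ES2 DMSO libraries. The YARS2 call was lost without luteolin library 2 (-0.23, adjusted p 0.0648) or without DMSO library 2 (-0.25, adjusted p 0.075). WARS2, the mitochondrial partner of WARS1, had 15.8, 14.5 and 13.6 TPM with luteolin and 14.5, 13.6 and 13.9 TPM with DMSO, with overlapping groups (0.06 ± 0.07, adjusted p 0.49).

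Transcripts of marker genes moved in the same ES2 libraries. Of 5 fibroblast markers, 2 were tested and COL1A1 was lower, and the list summed to 15.6 to 20.8 TPM with luteolin and 111 to 133 TPM with DMSO, with PDGFRB and LUM under 1 TPM in every library. Of 3 endothelial markers, 1 was tested and lower, CDH5, and the list summed to 9.59 to 10.7 TPM with luteolin and 36.0 to 39.8 TPM with DMSO. The ovarian carcinoma markers summed to 705 to 775 TPM with luteolin and 952 to 992 TPM with DMSO. The part of these shifts in the synthetase values was not tested.

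In A2780, luteolin was not accompanied by a rise of the synthetases as a block. The median of all 13012 genes tested was itself shifted by 0.22 log2 units, with 45.6% of genes higher and 19.9% lower, and fold changes are therefore also given minus this median. Of the 19 cytosolic synthetases 6 were higher and 6 lower, and of the 16 mitochondrial synthetases 4 were higher and 4 lower. Both medians were 0.03, which is -0.19 relative to all genes, and 20 of the 35 were called in either direction, against 65.5% of all genes. By library, 6 cytosolic genes were higher and 7 lower without overlap, against 46.2% and 21.1% of all genes. With TPM rescaled by median-of-ratios factors, which brought the median of all genes to 0.02, 2 cytosolic genes were higher and 11 lower, and 2 mitochondrial genes were higher and 9 lower. With quantile normalization the cytosolic split was 8 higher and 5 lower and the mitochondrial split 1 higher and 7 lower, so the direction of the cytosolic list depended on the scaling.

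SARS1 was the cytosolic gene with the largest rise in A2780. It had 312, 321 and 341 TPM with luteolin and 216, 209 and 227 TPM with DMSO, a log2 fold change of 0.58 ± 0.04 (adjusted p 1.75e-07) or 0.36 relative to all genes. QARS1 had 187, 189 and 175 TPM with luteolin and 134, 132 and 155 TPM with DMSO (0.39 ± 0.07, adjusted p 0.000299, 0.17 relative to all genes). Neither gene's groups overlapped, and QARS1 lost its call when only protein-coding transcripts were counted (0.08, adjusted p 0.109). IARS1 was at 0.27 ± 0.05 (adjusted p 0.000673), which is 0.05 relative to all genes, and it did not pass with median-of-ratios scaling (adjusted p 0.205).

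Among the cytosolic genes, the largest falls in A2780 with luteolin were in FARSA and FARSB, the alpha and beta subunits of the cytosolic phenylalanine enzyme, and in KARS1. FARSA had 152, 159 and 134 TPM with luteolin and 183, 187 and 204 TPM with DMSO (-0.37 ± 0.08, adjusted p 0.00205, -0.58 relative to all genes). FARSB had 13.4, 14.0 and 13.5 TPM with luteolin and 17.7, 17.5 and 18.8 TPM with DMSO (-0.37 ± 0.06, adjusted p 0.000161, -0.59 relative to all genes). KARS1 had 126, 126 and 124 TPM with luteolin and 152, 150.2 and 157 TPM with DMSO (-0.29 ± 0.05, adjusted p 0.000116, -0.51 relative to all genes). In all 3 every luteolin library lay below every DMSO library.

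WARS1 and GARS1, which rose in ES2, stood lower with luteolin in A2780. WARS1 had 252, 273 and 278 TPM in A2780 luteolin libraries and 315, 282 and 327 TPM in A2780 DMSO libraries (-0.20 ± 0.06, adjusted p 0.00812, -0.42 relative to all genes), and it lost its call with quantile normalization (adjusted p 0.32). GARS1 had 257, 257 and 265 TPM with luteolin and 270.0, 266 and 281 TPM with DMSO. Its groups did not overlap but it did not pass the threshold (-0.07 ± 0.04, adjusted p 0.134). It passed as lower with median-of-ratios scaling (-0.29, adjusted p 1.52e-05), and its sign turned with quantile normalization (0.05).

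MARS2 and PARS2 had positive fold changes in A2780 as in ES2. MARS2 had 12.8, 14.7 and 12.8 TPM in A2780 luteolin libraries and 8.995, 8.28 and 9.88 TPM in A2780 DMSO libraries (0.52 ± 0.10, adjusted p 0.000447, 0.30 relative to all genes). PARS2 had 6.97, 7.38 and 8.58 TPM with luteolin and 5.33, 5.15 and 4.75 TPM with DMSO (0.50 ± 0.10, adjusted p 0.000874, 0.29 relative to all genes). Both lost the call with quantile normalization, with adjusted p 0.0869 for MARS2 and 0.529 for PARS2.

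WARS2 had 13.3, 12.3 and 13.5 TPM with luteolin and 7.97, 10.1 and 10.4 TPM with DMSO in A2780 (0.43 ± 0.11, adjusted p 0.00395, 0.21 relative to all genes). It did not pass with median-of-ratios scaling (adjusted p 0.0592) or quantile normalization (adjusted p 0.578). EARS2 had 24.5, 32.8 and 29.4 TPM with luteolin and 39.2, 40.0 and 41.0 TPM with DMSO (-0.47 ± 0.08, adjusted p 0.000299, -0.68 relative to all genes). YARS2 had 21.2, 19.6 and 17.1 TPM with luteolin and 26.1, 21.7 and 24.8 TPM with DMSO (-0.32 ± 0.09, adjusted p 0.00817, -0.53 relative to all genes). The groups did not overlap in either gene. EARS2 lost its call when only protein-coding transcripts were counted (-0.08, adjusted p 0.567). The calls of LARS2 and RARS2, both -0.24, were lost without at least 1 library of the line.

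Marker transcripts in A2780 were low and some of them changed with luteolin. Of 5 fibroblast markers 4 were tested, and COL1A1 (-0.47) and PDGFRB (-0.60) were lower, with the list at 16.3 to 16.7 TPM with luteolin and 17.3 to 20.8 TPM with DMSO. HBA1, the 1 of 2 erythroid markers that was tested, was lower (-1.0), and this list summed to 0.556 to 2.63 TPM with luteolin and 3.499 to 4.897 TPM with DMSO, with HBB under 1 TPM in every library. Of the ovarian carcinoma markers 3 were tested and 0 passed (5.63 to 6.35 TPM with luteolin, 5.48 to 6.32 TPM with DMSO). The part of these values in the synthetase results was not tested.

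**Figure D2:**
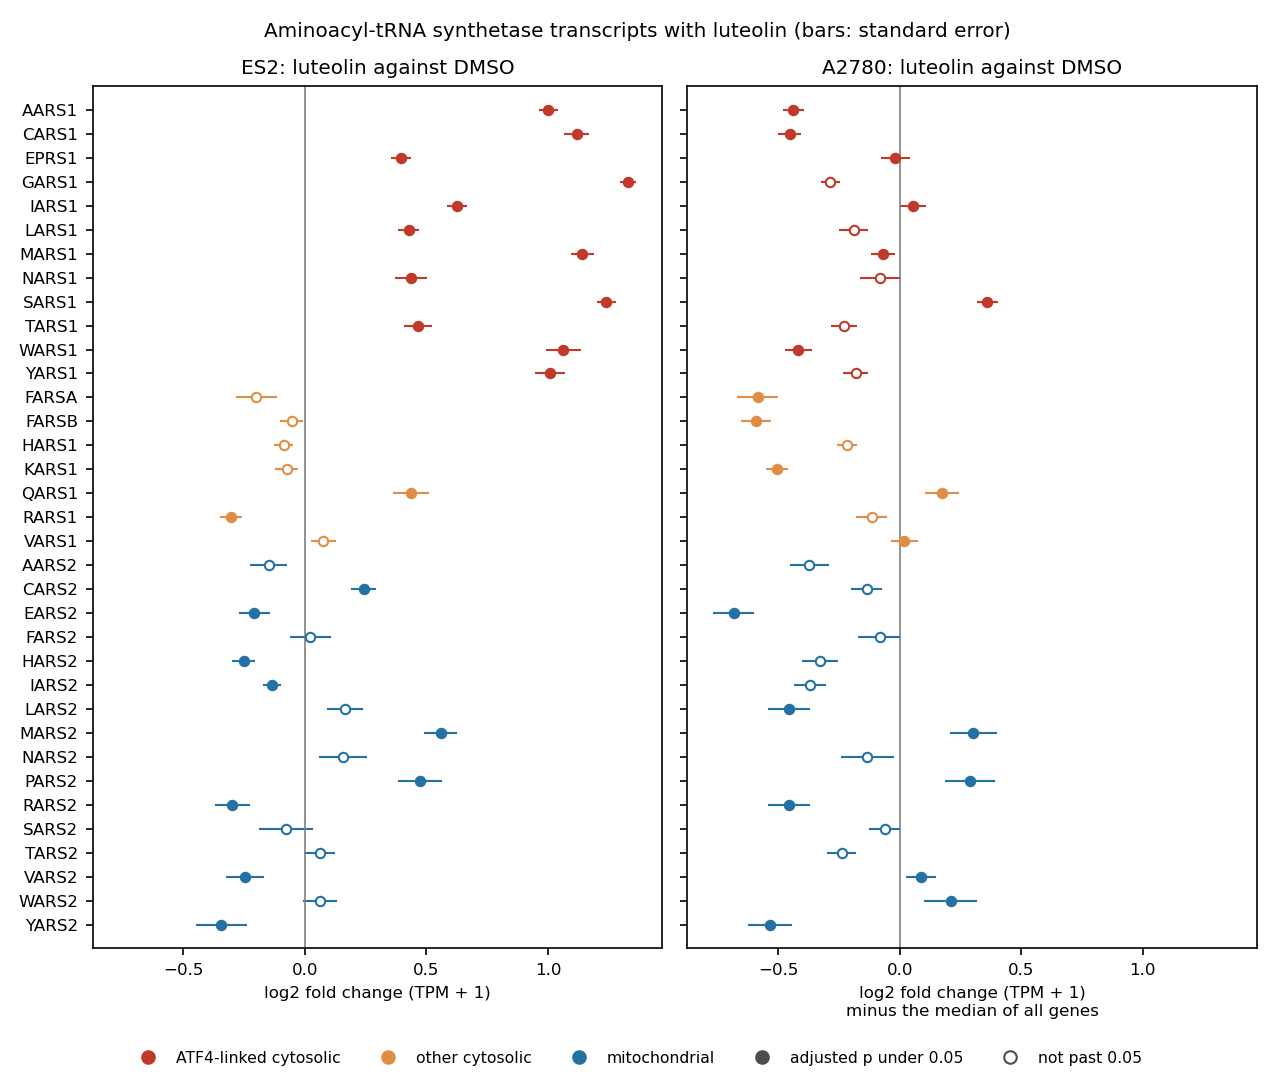
Log2 fold change of each synthetase with luteolin (points, with standard errors) in ES2 and in A2780, where the median of all genes (0.22) was subtracted. Filled points had an adjusted p under 0.05 before that subtraction. The 12 ATF4-linked genes lie between 0.40 and 1.33 in ES2, and the mitochondrial genes lie on both sides of 0 in both lines.

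The difference between the lines in the luteolin effect was tested directly, as ES2 minus A2780, in a fit of all 24 libraries. All 12 ATF4-linked genes had a larger effect in ES2 (adjusted p under 0.05), by 0.20 (EPRS1) to 1.40 (GARS1), against 14.7% of 14328 genes with a positive and 35.8% with a negative called difference. The median of all genes was -0.20 in this difference, and relative to it the 12 genes lay between 0.39 and 1.59. Over all 35 synthetases 19 differences were called, against 50.5% of all genes. Of the 7 other cytosolic genes, FARSB and KARS1 had a larger effect in ES2 and RARS1 a smaller one. Of the 16 mitochondrial genes 2 had a larger effect in ES2 (LARS2, leucine, and EARS2) and 2 a smaller one (VARS2 and WARS2). Scaled by median-of-ratios factors, 6 mitochondrial genes were larger and 1 smaller, with quantile normalization likewise, and 11 of the 12 ATF4-linked genes were called larger with quantile normalization.

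The summed levels of the 2 compartments show the same values as totals. GARS1 and KARS1, which serve both compartments, were counted wholly as cytosolic in these sums and ratios. In ES2 the 19 cytosolic synthetases summed to 2935 ± 134 TPM with luteolin and 1926 ± 56.0 TPM with DMSO (SD, n = 3 each). The 16 mitochondrial synthetases summed to 359 ± 13.8 TPM with luteolin and 368 ± 9.29 TPM with DMSO. The ratio of cytosolic to mitochondrial TPM was 8.02 to 8.35 in the ES2 luteolin libraries and 5.10 to 5.46 in the ES2 DMSO libraries, so the groups did not overlap.

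Within the cytosolic sum of ES2, the 12 ATF4-linked genes contributed 2207 ± 104 TPM with luteolin and 1195 ± 33.8 TPM with DMSO, while the 7 other genes contributed 728 ± 30.8 and 731 ± 22.3 TPM. In A2780 the 12 genes summed to 2319 ± 39.9 TPM with luteolin and 2206 ± 125 TPM with DMSO. The ES2 luteolin libraries, at 2105 to 2312 TPM, overlapped the A2780 DMSO libraries, at 2112 to 2348 TPM. In A2780 the ratio of cytosolic to mitochondrial TPM was 6.08 ± 0.03 with luteolin and 5.73 ± 0.12 with DMSO. The ratio also differed among the siRNA libraries. In A2780 it was 5.73 to 6.01 with siVRK1 and 5.46 to 5.54 with siCtrl, without overlap. In ES2 it was 5.84 to 5.99 with siVRK1 and 5.96 to 6.26 with siCtrl, both above the 5.10 to 5.46 of ES2 DMSO.

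**Figure D3:**
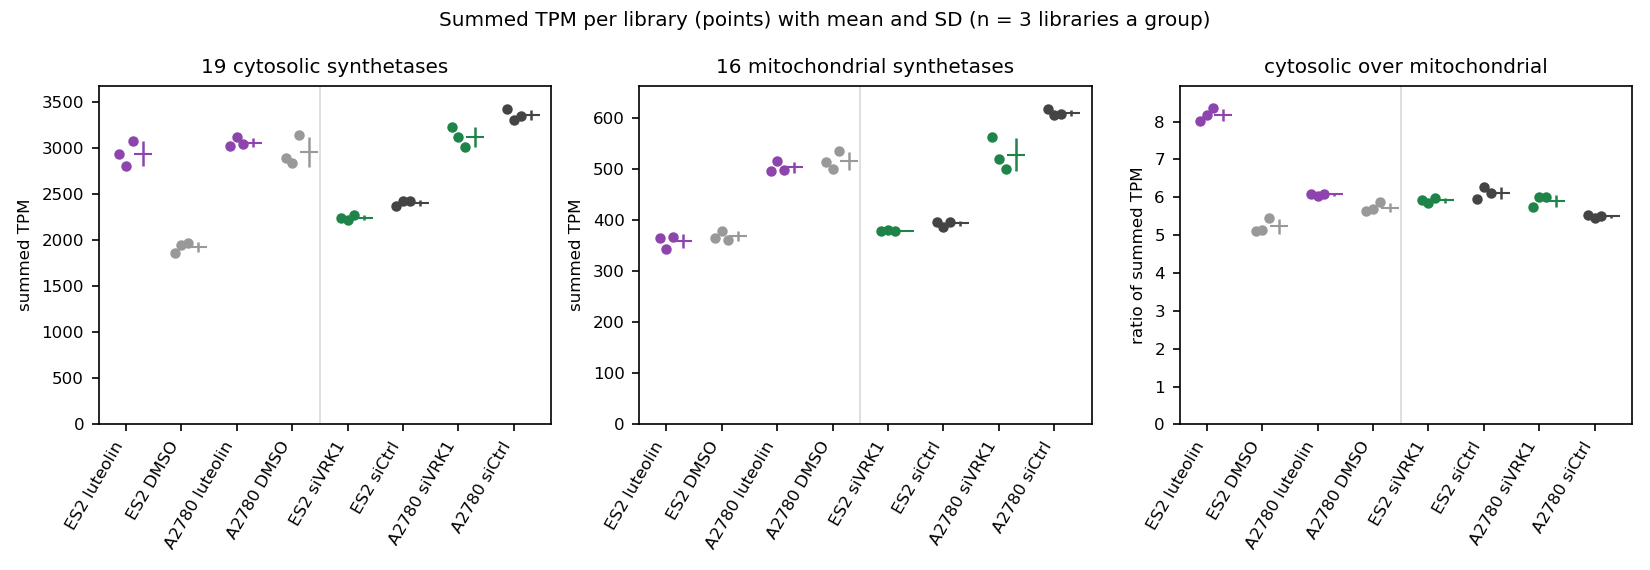
Summed TPM of the cytosolic and of the mitochondrial synthetases and the ratio of the sums (vertical axes, from 0) in every library (points), with the mean and SD of 3 libraries. The ES2 luteolin libraries have ratios of 8.02 to 8.35, above every other library of either line.

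The transcripts behind the A2780 values differed in kind between the groups. Transcripts annotated as retained introns in GENCODE release 29 made up 8.12% to 9.38% of cytosolic synthetase TPM in A2780 luteolin libraries and 4.66% to 5.27% in A2780 DMSO libraries. For the mitochondrial synthetases the share was 4.73% to 5.58% with luteolin and 2.11% to 2.64% with DMSO. The A2780 siRNA libraries also lay above DMSO. Their cytosolic share was 6.09% to 6.99% with siCtrl and 6.63% to 7.57% with siVRK1, and their mitochondrial share 2.70% to 3.25% and 3.25% to 3.42%. The share over all genes was not computed, so a shift across all genes cannot be told from one of the synthetases. In ES2 the cytosolic share was 5.10% to 6.03% with luteolin and 3.93% to 4.69% with DMSO, while the mitochondrial shares overlapped, at 2.45% to 4.10% with luteolin and 2.65% to 3.70% with DMSO. Of 715 synthetase transcripts in the table, 449 were matched to that annotation.

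MARS1 is described further, chosen after its values were seen. In A2780 its retained-intron transcripts made up 21.6 ± 3.25% of its TPM with luteolin and 5.08 ± 0.62% with DMSO (SD, n = 3). Its summed level had a log2 fold change of 0.15 (adjusted p 0.0169, lost without at least 1 library of the line), but with protein-coding transcripts alone the fold change was -0.25 (adjusted p 0.000477) and with its most abundant transcript alone -0.24 (adjusted p 0.000736). The protein-coding transcripts had 158 ± 3.24 TPM with luteolin and 189 ± 7.43 TPM with DMSO. In ES2 the protein-coding transcripts of MARS1 had 140 ± 4.63 TPM with luteolin and 67.6 ± 0.81 TPM with DMSO, so the direction there was that of the sum.

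The ES2 values were also taken without such transcripts. With protein-coding transcripts alone, a setting chosen after seeing the data, 11 of the 12 ATF4-linked genes could be tested in ES2, and all 11 were higher with luteolin, with a median of 0.85. The gene not tested was CARS1, of whose TPM in ES2 DMSO libraries 98.1% lay on transcripts that did not match GENCODE release 29. In A2780 DMSO libraries 1.98% of CARS1 TPM lay on unmatched transcripts. CARS1 levels in the 2 lines therefore sum over different transcripts of the symbol.

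**Figure D4:**
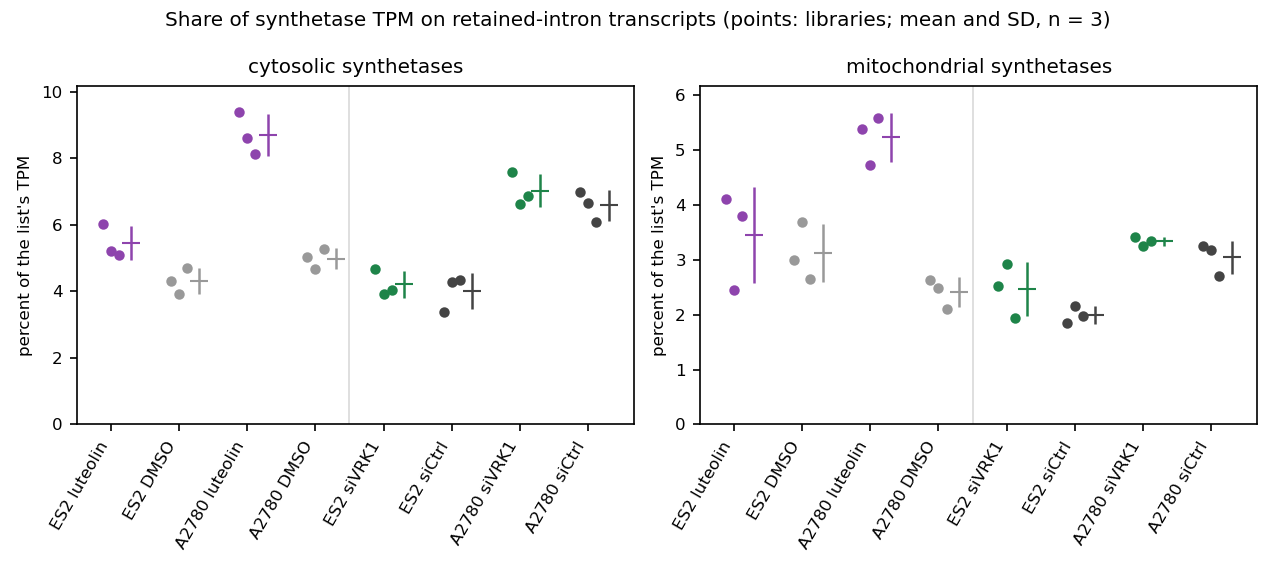
Percent of the summed TPM of the cytosolic and of the mitochondrial synthetases that lay on retained-intron transcripts (vertical axes, from 0) in every library (points), with the mean and SD of 3 libraries. The A2780 luteolin libraries are highest in both panels, at 8.12% to 9.38% and 4.73% to 5.58%.

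In A2780, siVRK1 was accompanied by lower levels of many synthetases of both compartments. Of the 16 mitochondrial genes 10 were lower and 0 higher than in siCtrl libraries, and of the 19 cytosolic genes 8 were lower and 2 higher. Over all 13012 genes 27% were lower and 13.8% higher, with a median of -0.08, and 20 of the 35 synthetases were called in either direction, against 40.9% of all genes. By library, 11 genes of each compartment were lower without overlap, against 34.5% of all genes, and 4 cytosolic genes were higher, against 18.8%. With median-of-ratios scaling, which centred all genes at 0.00 with 2687 higher and 2658 lower, 7 mitochondrial genes were lower and 2 higher, and 7 cytosolic genes were lower and 4 higher. The difference between the compartments was not tested.

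AARS1 (chr16:70252295-70289543, minus strand) had the largest fall in A2780. It had 135, 132 and 123 TPM in siVRK1 libraries and 206, 207 and 209 TPM in siCtrl libraries, a log2 fold change of -0.67 ± 0.04 (adjusted p 3.65e-07). CARS1 had 69.1, 62.8 and 65.3 TPM with siVRK1 and 90.3, 87.8 and 85.8 TPM with siCtrl (-0.42 ± 0.05, adjusted p 2.75e-05). FARSB had 17.5, 16.7 and 16.4 TPM with siVRK1 and 22.4, 21.7 and 21.8 TPM with siCtrl (-0.36 ± 0.06, adjusted p 0.000555). The groups did not overlap in any of the 3.

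The cytosolic genes that were higher with siVRK1 in A2780 were WARS1 and HARS1. WARS1 had 331, 314 and 301 TPM with siVRK1 and 273, 272 and 268 TPM with siCtrl (0.22 ± 0.06, adjusted p 0.00877). It did not pass when only its most abundant transcript was counted (0.05, adjusted p 0.6). HARS1 had 98.0, 98.3 and 93.7 TPM with siVRK1 and 90.0, 85.1 and 89.3 TPM with siCtrl (0.13 ± 0.04, adjusted p 0.0242), and the call was lost without siVRK1 library 1 (adjusted p 0.0633), siVRK1 library 2 (0.088) or siCtrl library 2 (0.102).

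Among the genes of both compartments in A2780, GARS1 had 259, 248 and 244 TPM with siVRK1 and 302, 288 and 289.8 TPM with siCtrl (-0.23 ± 0.04, adjusted p 0.000533). KARS1 had 143, 141 and 133 TPM with siVRK1 and 157, 143 and 147 TPM with siCtrl (-0.10 ± 0.05, adjusted p 0.101). GARS1 groups were separate and KARS1 groups overlapped.

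The largest mitochondrial falls in A2780 were in TARS2, the threonine enzyme, and RARS2. TARS2 had 56.3, 55.1 and 50.4 TPM with siVRK1 and 75.2, 73.6 and 72.2 TPM with siCtrl (-0.44 ± 0.06, adjusted p 1e-04). RARS2 had 24.2, 23.6 and 22.3 TPM with siVRK1 and 33.0, 29.8 and 30.1 TPM with siCtrl (-0.39 ± 0.09, adjusted p 0.00318). AARS2, FARS2, YARS2, VARS2, MARS2, EARS2, LARS2 and IARS2 were also lower, by -0.39 to -0.20. The calls of EARS2, LARS2 and IARS2 were lost without at least 1 library of the line. The VARS2 call was lost with protein-coding transcripts alone (-0.19, adjusted p 0.675). Such transcripts held 17.4% of VARS2 TPM in A2780 siVRK1 libraries and 17.6% in A2780 siCtrl libraries. With the most abundant transcript alone, VARS2 (-0.13, adjusted p 0.795), EARS2 (-0.14, adjusted p 0.69) and LARS2 (-0.15, adjusted p 0.356) did not pass.

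MARS2 had 9.77, 8.98 and 7.96 TPM with siVRK1 and 11.8, 10.4 and 11.1 TPM with siCtrl in A2780 (-0.29 ± 0.10, adjusted p 0.0308). Its call was lost without siVRK1 library 2 (adjusted p 0.0656), siVRK1 library 3 (0.122), siCtrl library 1 (0.108) or siCtrl library 3 (0.071). PARS2 had 6.999, 5.53 and 6.32 TPM with siVRK1 and 6.81, 6.58 and 6.54 TPM with siCtrl, with overlapping groups (-0.07 ± 0.10, adjusted p 0.601). WARS2 had 14.8, 11.8 and 11.7 TPM with siVRK1 and 14.9, 14.0 and 15.2 TPM with siCtrl (-0.20 ± 0.11, adjusted p 0.176), and of the settings that leave out 1 library it passed the threshold only without siVRK1 library 1 (-0.30, adjusted p 0.0472).

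In the A2780 siRNA libraries, of 4 tested fibroblast markers 2 were higher with siVRK1 (COL1A1, 0.68, and PDGFRB, 0.71) and PDGFRA was lower, with the list at 20.07 to 22.2 TPM with siVRK1 and 19.9 to 22.9 TPM with siCtrl. Of the ovarian carcinoma markers KRT18 was lower (-0.58), and the list summed to 6.97 to 8.17 TPM with siVRK1 and 10.3 to 12.1 TPM with siCtrl. Their part in the synthetase values was not tested.

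In ES2, siVRK1 was accompanied by lower levels of 10 and higher levels of 2 of the 19 cytosolic synthetases, and by lower levels of 4 and higher levels of 2 of the 16 mitochondrial ones. Over all 12507 genes 28% were lower and 26.8% higher, with a median of 0.00, and 18 of the 35 synthetases were called in either direction, against 54.8% of all genes. By library, 11 cytosolic genes were lower and 3 higher without overlap, against 32.2% and 30.9% of all genes. With quantile normalization 8 cytosolic genes were lower and 4 higher. The ATF4-linked genes did not move as a block: 2 were higher and 6 lower, with a median of -0.09.

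CARS1 had the largest fall of any synthetase with siVRK1 in ES2. It had 18.2, 19.6 and 19.7 TPM in siVRK1 libraries a, b and 3 and 38.7, 41.4 and 41.2 TPM in siCtrl libraries, a log2 fold change of -1.04 ± 0.05 (adjusted p 8.37e-09). GARS1 had 123, 129 and 131 TPM with siVRK1 and 171, 169 and 169 TPM with siCtrl (-0.40 ± 0.03, adjusted p 7.85e-07). RARS1 had 125, 120.3 and 124 TPM with siVRK1 and 164, 161 and 160.3 TPM with siCtrl (-0.39 ± 0.04, adjusted p 9.04e-06). In each the groups were clearly apart.

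KARS1 had 144, 141 and 149 TPM with siVRK1 and 166, 162 and 169.8 TPM with siCtrl in ES2 (-0.20 ± 0.05, adjusted p 0.00453), and it did not pass when only its most abundant transcript was counted (-0.08, adjusted p 0.199). IARS1 and TARS1 were the cytosolic genes that were higher. IARS1 had 114, 116 and 120.0 TPM with siVRK1 and 93.7, 89.7 and 92.6 TPM with siCtrl (0.34 ± 0.04, adjusted p 1.26e-05). TARS1 had 202, 199 and 208 TPM with siVRK1 and 182, 171 and 182 TPM with siCtrl (0.19 ± 0.06, adjusted p 0.0153), and it lost the call without siVRK1 library 3 (adjusted p 0.0528) or siCtrl library 2 (0.0619).

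The mitochondrial genes of ES2 held the largest rise with siVRK1, in CARS2, the cysteine enzyme of mitochondria. CARS2 had 49.4, 48.3 and 46.8 TPM with siVRK1 and 29.2, 28.1 and 28.6 TPM with siCtrl (0.73 ± 0.05, adjusted p 1.67e-07). The cytosolic and the mitochondrial cysteine enzymes were thus the extremes of the 35 in this comparison, in opposite directions. HARS2 had 30.1, 31.0 and 30.5 TPM with siVRK1 and 28.3, 27.4 and 27.6 TPM with siCtrl (0.13 ± 0.05, adjusted p 0.0368), and this call was lost when any 1 of its 6 libraries was left out (adjusted p 0.0524 to 0.103) or when only protein-coding transcripts were counted (0.0609).

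RARS2 had 18.3, 17.7 and 18.7 TPM with siVRK1 and 32.0, 26.8 and 30.1 TPM with siCtrl in ES2 (-0.67 ± 0.07, adjusted p 6.59e-06). TARS2 had 22.6, 20.6 and 20.2 TPM with siVRK1 and 31.3, 31.4 and 33.6 TPM with siCtrl (-0.58 ± 0.06, adjusted p 9e-06). These 2 were also the largest mitochondrial falls in A2780. The call of YARS2, at -0.27, was lost without at least 1 library of the line, as were those of the lower cytosolic genes MARS1 and SARS1, both -0.12. The protein-coding transcripts of SARS1 had 121 ± 2.56 TPM with siVRK1 and 167 ± 0.39 TPM with siCtrl in ES2 (SD, n = 3). They made up 70.9% and 90.0% of its TPM. In A2780 they had 184 ± 2.41 TPM with siVRK1 and 209 ± 4.67 TPM with siCtrl, which is 76.5% and 90.2% of its TPM. WARS1, WARS2, MARS2 and PARS2 did not pass in ES2, with log2 fold changes of 0.05, 0.11, -0.13 and -0.08. WARS1 passed as higher when only its most abundant transcript was counted (0.22, adjusted p 0.025). In the same libraries the ovarian carcinoma markers summed to 636 to 675 TPM with siVRK1 and 962 to 986 TPM with siCtrl, and the fibroblast markers to 52.0 to 64.3 TPM with siVRK1 and 82.0 to 97.9 TPM with siCtrl, and the part of these shifts in the synthetase values was not tested.

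**Figure D5:**
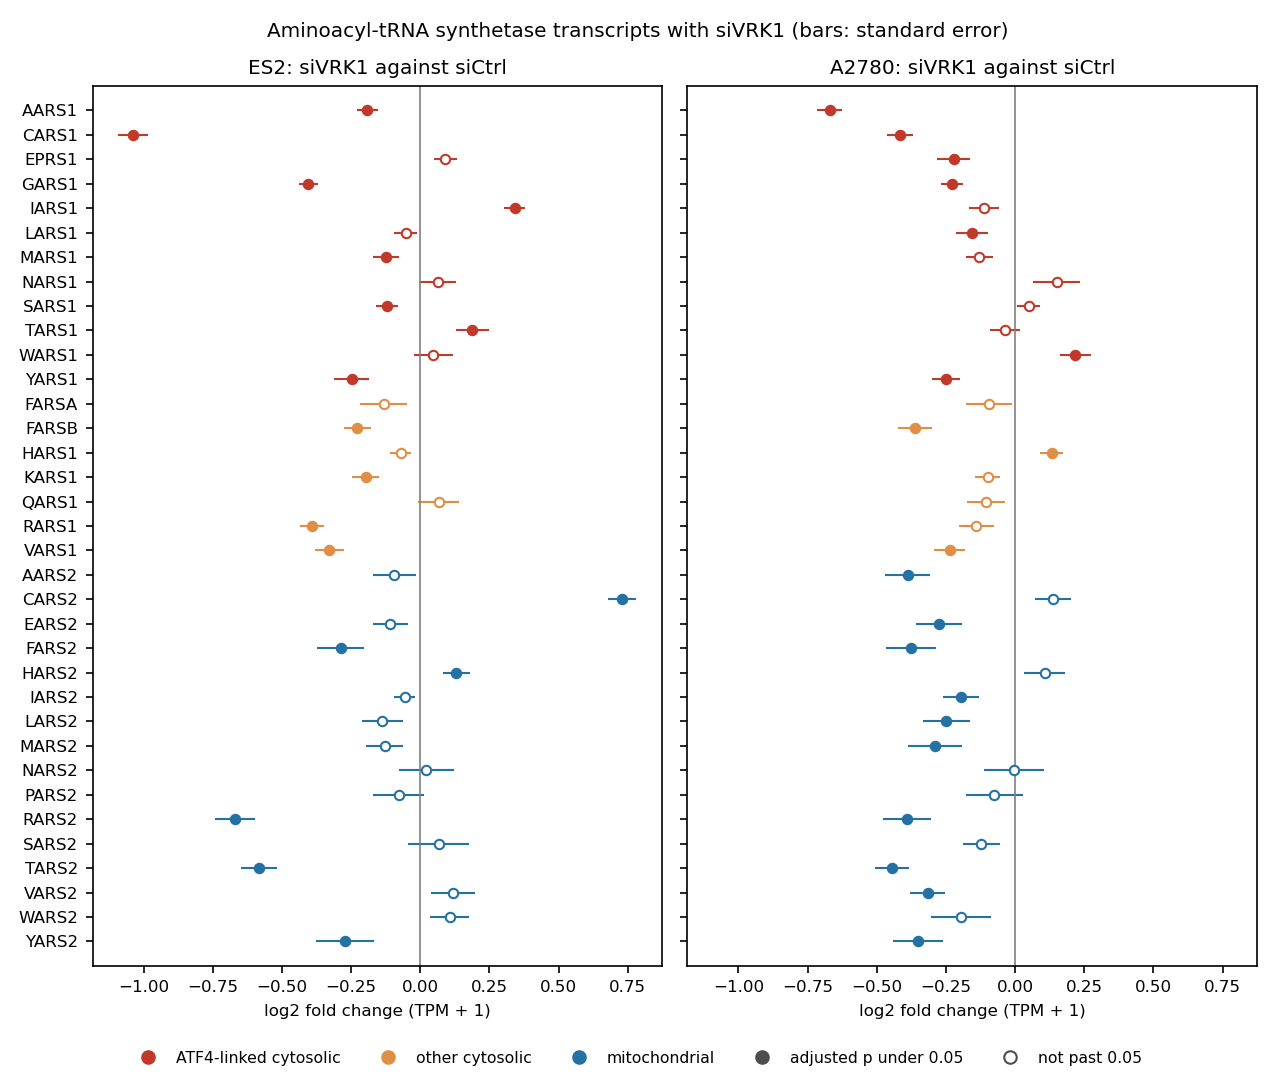
Log2 fold change of each synthetase with siVRK1 (points, with standard errors) in ES2 and in A2780. Filled points had an adjusted p under 0.05. CARS1 (-1.04) and CARS2 (0.73) are the extremes in ES2, AARS1 (-0.67) is the lowest in A2780, and RARS2 and TARS2 are low in both lines.

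Tested directly, the siVRK1 effect differed between the lines for 12 synthetases (ES2 minus A2780, 9 cytosolic and 3 mitochondrial). Over all 14328 genes 33.9% were called, with a positive difference for 20.7% and a negative one for 13.2%. CARS1 had a more negative effect in ES2 (-0.62 ± 0.06) and AARS1 a less negative one (0.48 ± 0.06), and IARS1 (0.45 ± 0.06) and CARS2 (0.59 ± 0.08) had higher effects in ES2. In the cytosolic list 4 differences were positive and 5 negative, and with median-of-ratios scaling 3 were positive and 8 negative. The mitochondrial split was 3 positive and 0 negative, and 2 and 2 with that scaling.

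The luteolin and the siVRK1 effects, which have separate controls, were also compared within each line. In ES2 all 12 ATF4-linked genes had a higher effect of luteolin than of siVRK1, by 0.28 (TARS1) to 2.16 (CARS1). Of all genes 25.8% had a called positive and 26% a called negative difference, 51.9% in all, and of the 35 synthetases 24 were called. This difference includes the gap between the controls, in which all 12 were higher in siCtrl than in DMSO libraries, by 0.16 to 0.57. EPRS1 was counted as higher although it had 113, 109 and 114 TPM with luteolin and 130, 122 and 132 TPM with siVRK1. CARS1 had 62.7, 64.3 and 65.7 TPM with luteolin and 18.2, 19.6 and 19.7 TPM with siVRK1. Of the mitochondrial genes of ES2, 6 had a higher and 3 a lower effect of luteolin. In A2780, where the median of all genes was 0.30 in this difference and 43.3% of genes were called positive and 14.3% negative, 11 cytosolic synthetases were positive and 2 negative. Of the 35 synthetases 20 were called, against 57.6% of all genes. The cytosolic split was 3 positive and 8 negative with median-of-ratios scaling. WARS1 had the most negative difference in A2780, at -0.42 ± 0.08 or -0.72 relative to all genes.

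The control groups differed from each other as well. In ES2, 18 of the 19 cytosolic synthetases were higher in siCtrl than in DMSO libraries, by 0.16 to 0.57, against 34.7% of all genes higher and 21.5% lower and a median of 0.08. All 12 ATF4-linked genes were among them, with a median of 0.33. Over both compartments 27 were called, against 56.2% of all genes. Of the cytosolic genes 14 were higher after median-of-ratios scaling and 10 after quantile normalization, and 0 were lower in either. Of the mitochondrial genes 7 were higher and 2 lower (CARS2 at -0.68 and SARS2, serine, at -0.46), and 6 and 3 with median-of-ratios scaling. In A2780, 24 synthetases were higher in siCtrl than in DMSO libraries and 1 lower, against 47.2% and 10.9% of all genes (58.1% in all) and a median of 0.24, but with median-of-ratios scaling only 4 were higher and 8 lower. CARS2 of ES2 thus had 46.8 to 49.4 TPM with siVRK1, 28.1 to 29.2 TPM with siCtrl, 52.8 to 59.0 TPM with luteolin and 45.3 to 48.5 TPM with DMSO, so that its siCtrl libraries were the lowest of the line.

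Without treatment, the lines differed in most synthetases. Between ES2 DMSO and A2780 DMSO libraries 23 were lower in ES2 and 7 higher, against 41.2% and 35.2% of all 14328 genes (76.4% in all). Of the ATF4-linked genes 10 were lower in ES2 and 1, LARS1, higher (0.25). WARS1 had 83.8 ± 6.30 TPM in ES2 and 308 ± 23.1 TPM in A2780 (SD, n = 3 each, log2 fold change -1.87 ± 0.07). YARS1 had 79.0 ± 3.52 TPM in ES2 and 240 ± 8.47 TPM in A2780, and CARS1 had 29.1 ± 1.29 TPM in ES2 and 88.0 ± 2.65 TPM in A2780. Of the mitochondrial genes 10 were lower in ES2 and 3 higher: SARS2 had 11.1 ± 1.08 TPM in ES2 and 41.4 ± 3.25 TPM in A2780, and TARS2 had 23.7 ± 1.57 TPM in ES2 and 59.9 ± 0.77 TPM in A2780. This comparison shares the DMSO libraries with the luteolin comparisons, so its values and theirs are not independent.

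The subunits of the phenylalanine enzyme, which work as an equal pair of alpha and beta chains, differed in balance between the lines. FARSA over FARSB was a TPM ratio of 3.501 ± 0.13 in ES2 DMSO and 10.6 ± 0.25 in A2780 DMSO (SD, n = 3). FARSB was higher in ES2, by 1.02, and FARSA lower, by -0.54. Across all 8 groups the ratio had means of 3.18 to 3.73 in ES2 and 9.67 to 11.8 in A2780, so no treatment brought the lines to the same balance.

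KARS1 makes its cytosolic and mitochondrial forms from transcripts with coding sequences of 597 and 625 codons. The longer, mitochondrial form held 8.36 ± 0.21% of the TPM of both in ES2 luteolin and 9.58 ± 1.5% in ES2 DMSO libraries. It held 8.60 ± 0.91% in ES2 siVRK1 and 13.2 ± 0.30% in ES2 siCtrl libraries, the highest of the 8 groups. In A2780 the means lay between 8.53% and 10.6%. HARS1 and HARS2 lie head to head on chromosome 5 and overlap in GENCODE release 29 between positions 140691426 and 140691862 (GRCh38), and whether the libraries keep strand is not given in the sources used here, so reads in that stretch cannot be told apart.

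Genes of the ATF4 pathway were also higher in ES2 luteolin libraries. Of 20 pathway genes, 16 were higher and 1 lower in ES2 luteolin than in DMSO libraries, with a median of 1.82, beside 22.6% higher and 25.8% lower among all genes. CHAC1, a glutathione-degrading enzyme, rose by 3.82 and NUPR1, a stress-induced chromatin protein, by 3.73, while ATF5 fell by 0.37. ATF4 itself, named here outside the rule for naming genes, had means of 546 TPM with luteolin and 276 TPM with DMSO, a log2 fold change of 0.99.

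In A2780, 15 of the 20 pathway genes were higher and 2 lower with luteolin, beside 45.6% and 19.9% of all genes. Their median was 0.69, which is 0.47 relative to all genes. ATF3 (2.93) and DDIT3 (2.49), both stress-induced transcription factors, rose most. PHGDH and PSAT1, enzymes of serine synthesis, fell by 0.28 and 0.27. ATF4 had means of 763 TPM with luteolin and 589 TPM with DMSO, a log2 fold change of 0.37 or 0.16 relative to all genes. Many pathway genes were thus higher with luteolin in A2780, where the ATF4-linked synthetases had 4 higher and 3 lower. With siVRK1, 5 pathway genes were higher and 8 lower in ES2, beside 26.8% and 28% of all genes. In A2780, 5 were higher and 7 lower, beside 13.8% and 27%.

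Interferon gamma response genes were followed because WARS1 belongs to that response. With luteolin, of 10 tested genes 7 were higher and 0 lower in ES2, beside 22.6% and 25.8% of all genes. In A2780 1 was higher and 7 lower, beside 45.6% and 19.9%. GBP1, an interferon-induced GTPase, rose by 0.98 in ES2, and PSMB9, an immunoproteasome subunit, fell by 2.49 in A2780. With siVRK1, 2 were higher and 7 lower in ES2 (26.8% and 28% of all genes) and 3 were higher and 2 lower in A2780 (13.8% and 27%), while WARS1 was at 0.05 in ES2 and 0.22 in A2780.

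The partners of the synthetases in translation were counted in the same way. The list of complex scaffold and elongation factor genes (AIMP1, AIMP2, EEF1E1, EEF1A1, EEF1B2, EEF1D and EEF1G) had 5 higher and 1 lower in ES2 siVRK1 libraries (26.8% and 28% of all genes) and 4 higher and 3 lower in A2780 siVRK1 libraries (13.8% and 27%). EEF1B2, an exchange factor subunit of elongation factor 1, rose by 0.77 in ES2, and EEF1G, another subunit, by 0.43 in A2780, where AIMP1, a scaffold protein of the multisynthetase complex, fell by 0.57. With luteolin the list had 4 higher and 1 lower in ES2 (22.6% and 25.8% of all genes) and 3 higher and 3 lower in A2780 (45.6% and 19.9%).

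The remaining lists were read against the shares of all genes called higher and lower, which were 26.8% and 28% in ES2 and 13.8% and 27% in A2780 with siVRK1, and 22.6% and 25.8% in ES2 and 45.6% and 19.9% in A2780 with luteolin. Of 12 mitochondrial translation genes, 0 were higher and 5 lower in ES2 and 0 higher and 7 lower in A2780 with siVRK1. GATB, a subunit of the amidotransferase that makes glutaminyl-tRNA in mitochondria, fell by 0.46 in ES2 and 0.57 in A2780. With luteolin 5 of the 12 were higher and 3 lower in ES2, and 5 higher and 1 lower in A2780, where 5 of 12 is near the share of all genes. Of 7 genes of tRNA editing and recycling, 2 were higher and 3 lower with luteolin in ES2 and 3 and 3 in A2780. With siVRK1 1 of these 7 was higher and 4 lower in ES2, and 1 and 3 in A2780. Of 10 MYC and nucleolar genes, 1 was higher and 5 lower with luteolin in ES2, and 2 and 3 in A2780. With siVRK1 5 of these 10 were higher and 3 lower in ES2, and 1 and 2 in A2780, the last near the shares of all genes.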

How the data were processed

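The authors deposited 1 table of TPM values per transcript for 24 RNA-seq libraries of total RNA. FastQC, kallisto and build hg19 are named per the submitters' processing notes, and their versions, the transcript set and the strand setting are not stated. Groups were taken from the sample titles, because the labels' cell line field counts upward from library to library and the treatment field of some siVRK1 libraries carries other numbers. In ES2 siVRK1 the same column name occurs on a pair of columns, called libraries a and b.

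The table had 193845 lines for 191887 distinct transcripts, and the 1958 repeated lines held equal values. TPM was summed per symbol. The 9542 transcripts without a symbol and 19 with more than 1 symbol, which together held 0.514% to 1.03% of TPM, were left out. Genes with at least 1 TPM in at least 3 libraries were tested on log2(TPM + 1) with limma 3.58.1 (R 4.3.3), with a mean-dependent prior, separately for the 12 libraries of each line and, between lines, over all 24. P-values were adjusted by Benjamini-Hochberg over all genes tested, with a threshold of 0.05, and fold changes of low genes are understated on this scale. Other settings tried were a pseudocount of 0.1 or 5, a minimum of 5 TPM or none, median-of-ratios and quantile scaling, removal of the 13 mitochondrial mRNAs, single transcripts, the compared groups alone, a replicate block and leaving out each library. Transcript types came from GENCODE release 29 and promoter windows from RefSeq. The scripts were tested on simulated data.

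The 35 genes, their subgroups, the companion lists and the rules were chosen with earlier results of these data known. Named with values in every library were, per treatment comparison, up to 3 called rises and 3 falls of cytosolic genes, up to 2 of each of mitochondrial genes, and WARS1, WARS2, KARS1, GARS1, MARS2 and PARS2 in any case. Of each companion list up to 2 called rises and 2 falls could be named. Counting protein-coding transcripts alone was added after seeing the data.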

Additional observations from a re-analysis of the deposited data

Results flagged for a closer look

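The effect of luteolin differed between the lines, by a test of the difference itself in a limma fit of all 24 libraries, for 19 of 35 synthetases, a share near the 50.5% of all genes called in this difference. Values are log2 differences, ES2 minus A2780, after subtraction of the median over all genes. They were positive for GARS1 (1.59), CARS1 (1.55), WARS1 (1.46), AARS1 (1.42), MARS1 (1.19), YARS1 (1.17), SARS1 (0.86), TARS1 (0.67), LARS1 (0.59), IARS1 (0.55), NARS1 (0.49) and EPRS1 (0.39), the 12 ATF4-linked genes. They were also positive for LARS2 (0.60), FARSB (0.52), EARS2 (0.45) and KARS1 (0.41), and negative for VARS2 (-0.36), RARS1 (-0.21) and WARS2 (-0.17).

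The effect of siVRK1 differed between the lines, by the same kind of test, for 12 of 35 synthetases, a share close to the 33.9% among all genes. The log2 difference, ES2 minus A2780, was positive for CARS2 (0.59), AARS1 (0.48), IARS1 (0.45), VARS2 (0.44), EPRS1 (0.31), AARS2 (0.30) and TARS1 (0.22). It was negative for CARS1 (-0.62), RARS1 (-0.25), HARS1 (-0.20), GARS1 (-0.18) and SARS1 (-0.17).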

How the results depend on the processing

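The number of synthetases called stayed within 1.5 times its value under the alternatives run, except in A2780 siCtrl against DMSO, where median-of-ratios scaling gave 12 and the deposited scale 25. Of single-gene values under the alternatives, 2031 kept their direction and side of the threshold, 127 lost and 8 gained the call, and 14 turned sign. For A2780 luteolin these were, with median-of-ratios scaling, EPRS1 (-0.0215) and MARS1 (-0.0713), with quantile normalization GARS1 (0.0541), with the most abundant transcript MARS1 (-0.24), VARS1 (-0.0056) and VARS2 (-0.40), and with protein-coding transcripts MARS1 (-0.25). For ES2 luteolin they were KARS1 with quantile normalization (0.0085), VARS2 with protein-coding transcripts (0.016), and WARS2 with the most abundant transcript (-0.0918) and with protein-coding transcripts (-0.0648). For A2780 siVRK1 PARS2 was 0.0059 with median-of-ratios scaling and ranged from -0.14 to 0.0021 when 1 library was left out. For ES2 siVRK1 WARS1 ranged from -0.0158 to 0.104 when 1 library was left out. The cause of these changes was not tested. TPM keeps no depth, so the precision of low genes such as PARS2 is known only from the spread between libraries.

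With the replicate number as a block, 23 synthetases were called for ES2 luteolin (24 with the unnumbered columns in the other order), 20 for A2780 luteolin, 16 for ES2 siVRK1 (17 in the other order) and 18 for A2780 siVRK1. Same-numbered libraries did not deviate together: the correlation of their deviations lay between -0.05 and 0.04 over 12 pairs. The unnumbered ES2 siVRK1 columns were given numbers for this check. Whether same-numbered libraries share a culture or batch is not stated and cannot be read from these correlations.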
